A study of Mus musculus with 4 samples.

Results

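The serpins measured here were 78 microarray probes for 61 genes, out of 55681 probes for 34844 gene names on the array. Every probe was taken whose gene name in the files begins with Serpin, a clade letter from a to i and a number. The RNA came from primary hepatocytes of mice of strain bl6, grown in DMEM with 10% FBS and kept overnight in medium with 0.5% FBS, 5 µM simvastatin and 100 µM mevalonic acid. Both groups had this statin and mevalonate. The 2 treated samples also had 1 µM GW3965, a synthetic compound that activates the liver X receptors (LXR), and the 2 control samples had DMSO, its solvent. Each group had a replicate a and a replicate b, on 4 one-colour Agilent arrays. For the treated samples the label itself is worded "LXR against GW3965", which was taken as GW3965 given. The labels do not say whether a and b were separate animals or cultures, so p-values measure only the spread between these samples, which may be technical.

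Most serpins inhibit serine proteases: the protease cleaves an exposed loop, the loop inserts into a sheet of the serpin, and protease and inhibitor stay bound in an inactive complex. Hepatocytes are the main source of the plasma serpins that hold back coagulation, fibrinolysis, complement and neutrophil proteases, and a few family members carry hormones or fold collagen instead. Clade B serpins lack a classical signal peptide and mostly act inside cells. In mice, the antitrypsin, antichymotrypsin and clade B loci hold many near-identical copies.

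That similarity reaches the probes, which are 60 bases long, and the stretches shown here are examples where probes of different genes nearly match. Pairs not shown include Serpina3h with the second Serpina3i probe (51 of 57 bases) and Serpinb3a with Serpinb3c (43 of 48). The stretches are printed 5′ to 3′, with the bases that differ in capitals and positions counted from the 5′ end of the first-named probe. Over 51 aligned bases the probe of Serpina1a (mm9 chr12:105091819-105091878, minus strand) and that of Serpina1c (chr12:105133165-105133224, minus strand) matched at 50, with the substitution A4G.
Serpina1a: taaAatgtcatccttccttctgaattgggt
Serpina1c: taaGatgtcatccttccttctgaattgggt
The probes of the clade B neighbours Serpinb9f (chr13:33427039-33427098, plus strand) and Serpinb9g (chr13:33587669-33587728, plus strand) matched at 52 of 59 bases, and the stretch shown holds G4A and T8A.
Serpinb9f: gtGcagTgagtcctctaacaaatggccatt
Serpinb9g: gtAcagAgagtcctctaacaaatggccatt
For the probe of the intracellular inhibitor Serpinb6a and the second probe of its neighbour Serpinb6c the match was 55 of 59 bases, with G27A, A30G, T31C and T49A.
Serpinb6a: tgcaatgGcaATtatgaaataaagggcttT
Serpinb6c probe 2: tgcaatgAcaGCtatgaaataaagggcttA

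For 4 probes the accessions in the files name several serpin genes. The Serpina1c probe lists Serpina1a, Serpina1b, Serpina1c and Serpina1e, and the first Serpina1d probe lists Serpina1b and Serpina1d. The first Serpina3f probe lists Serpina3f and Serpina3h, and the Serpinb9f probe lists Serpinb9e and Serpinb9f. Values of these groups are uncertain as to gene, since RNA of one copy can bind the probe of another. An annotation of exons and UTRs on mm9 was not used here, but 5 probes spanned more than 60 bases of genome and so crossed an intron. Among them was the probe of Serpina7 (thyroxine-binding globulin, a hormone carrier), which covered 655 bases of genome (chrX:135615848-135616502, minus strand).
Serpina7: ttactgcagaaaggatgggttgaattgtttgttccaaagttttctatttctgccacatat

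Serpins were detected widely in the RNA of these hepatocyte samples. That RNA also gave signal for markers of other cell types, so detection does not place a serpin in hepatocytes. Of the 78 probes, 54 were well above background on all 4 arrays by the scanner software's own call, 11 on 1 to 3 arrays and 13 on none. By gene, 42 of 61 had at least 1 probe well above background on every array and 10 had none. Clade A, the antitrypsin-like serpins, had 27 of 34 probes on all arrays. Clade B was less complete, with 17 of 31 probes on all arrays and 10 on no array, and 8 of its 27 genes were not well above background anywhere. Those 8 were Serpinb10-ps (Serpinb10 in RefSeq), Serpinb13, Serpinb1c, Serpinb3a, Serpinb3b, Serpinb5, Serpinb7 and Serpinb9b, of which Serpinb5 (maspin), Serpinb7 and Serpinb13 are known from epithelia such as skin. In clade A the 2 genes not well above background were Serpina3a and Serpina3j. Every probe of clades C to H was well above background on all arrays. In clade I, the 2 probes of Serpini1 (neuroserpin, an inhibitor of tissue plasminogen activator in brain) passed that call on 1 array alone, DMSO replicate a.

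**Figure D1:**
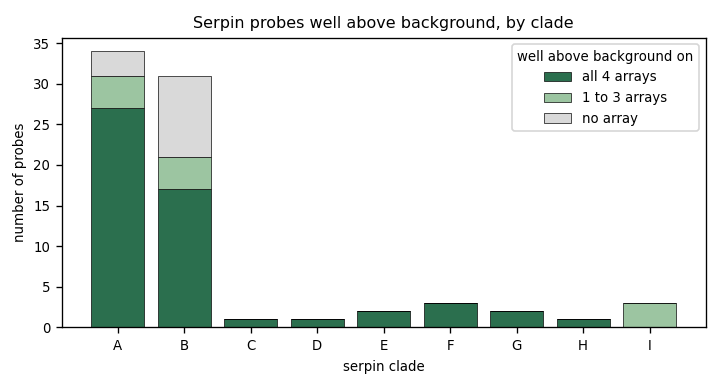
Number of serpin probes (vertical axis) in each clade (horizontal axis), stacked by whether the probe was well above background on all 4 arrays, on 1 to 3 arrays or on no array. Clade B holds 10 of the 13 probes seen on no array, and clade I has no probe seen on all 4.

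Array by array, the serpin probes well above background numbered 62 and 56 of 78 with DMSO and 60 and 62 with GW3965, replicate a first. As shares these were 79.5%, 71.8%, 76.9% and 79.5%, against 62.5%, 65.2%, 64.1% and 69.1% of all probes. DMSO replicate b thus had the fewest serpin probes although it was not the array with the fewest probes in all. No spot was saturated on any array. All 8 LXR target genes listed as a check on the labels were higher on each GW3965 array than on each DMSO array, with Abca1 higher by 2.58 and Abcg1 by 1.98 on the log2 scale.

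The first question was whether GW3965 changed serpin RNA. No serpin probe passed the test. Each value below is a log2 signal minus that of the 75th percentile of its array, so that 0 is the level of a fairly bright probe. Brightness also depends on the probe's sequence, so levels of different genes are not set against each other. Of the 78 serpin probes, 60 (47 genes) were tested, being well above background on the 2 arrays of DMSO, of GW3965 or of both. Of these, 6 passed through 1 group alone (5 through GW3965, 1 through DMSO). In limma with Benjamini-Hochberg adjustment over all 35478 probes tested, 0 serpin probes passed the adjusted threshold of 0.05, and the fit called 0% of all probes, Abca1 included. At an unadjusted p under 0.05 there were 0 serpin probes, against 1.03% (365) of all probes. The smallest unadjusted p of a serpin probe was 0.129, with an adjusted p of 1 from limma. This fit leaves out the replicate letter, so a gap between a and b counts as spread and raises the p-values. With the letter as a block, which the labels do not state, the shares were 10% of serpin probes and 5.51% of all.

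Group means were higher with GW3965 for 29 of the 60 probes and lower for 31. The median difference of GW3965 minus DMSO was -0.0049 on the log2 scale, beside 0.0011 over all probes tested. With 1 array left out, replicates a and b are no longer balanced between the groups. Leaving out 1 array at a time moved the serpin median between -0.19 (without GW3965 replicate a) and 0.21 (without GW3965 replicate b), so its sign rests on single arrays. The median size of a difference was 0.092, beside 0.10 over all probes. Differences were under 0.25 in size for 45 probes, and 2 probes (3.33%) differed by at least 1.5-fold, against 2.61% of all. The 95% interval of the difference lay between -1 and 1 for 31 of the 60 probes and between -2 and 2 for 53. A 2-fold change in either direction was thus outside the interval for about as many serpin probes as not. These intervals take no account of the replicate letter.

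In 3 probes the lower GW3965 array still exceeded the higher DMSO array, which is 5% of the serpin probes tested against 10.1% of all probes. Those were the probes of Serpina3b and Serpinb9f and the second probe of Serpinb9e. In another 3, again 5%, the order was the opposite, against 6.54% of all. Among these were Serpinb1a (an inhibitor of neutrophil proteases) and the second probe of Serpina3i. None of the 6 differed by 1.5-fold. With 2 arrays against 2, an exact permutation test cannot give a p below 0.333.

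**Figure D2:**
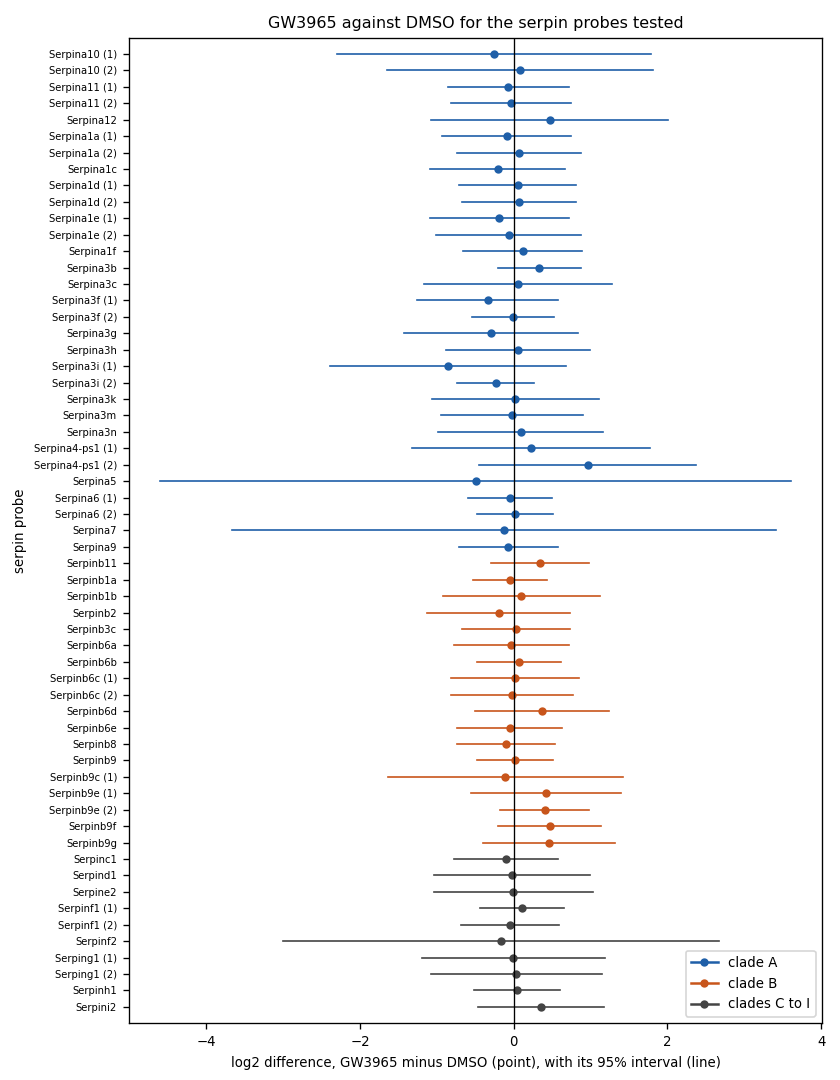
Difference in log2 signal, GW3965 minus DMSO (horizontal axis), for 59 of the serpin probes tested (vertical axis, by clade), with points for the limma estimate and lines for its 95% interval. Every interval shown includes 0, and the widest are those of Serpina5, Serpina7 and Serpinf2.

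The antitrypsin group includes inhibitors of neutrophil elastase, and its genes Serpina1a, Serpina1c, Serpina1d and Serpina1e were bright on every array. Serpina1a read 10.03 and 9.66 on DMSO replicates a and b and 10.12 and 9.38 on GW3965 replicates a and b. In the same order Serpina1c read 10.17, 9.90, 10.25 and 9.40. Serpina1e read 10.07, 9.63, 10.07 and 9.26. In each of these genes both a arrays lay above both b arrays, and the range of the GW3965 arrays enclosed or crossed that of the DMSO arrays. The difference of GW3965 minus DMSO was -0.09 ± 0.32 (SE) for Serpina1a, -0.21 ± 0.34 for Serpina1c, -0.19 ± 0.35 for Serpina1e and 0.05 ± 0.29 for Serpina1d, with n = 2 arrays in each group. Serpina1d read 8.50, 8.11, 8.64 and 8.06, again with the b arrays lower. The outlying copy Serpina1f was much dimmer on its own probe, at -2.49, -3.02, -2.39 and -2.88, and its a and b arrays stood in the same order. Over the 5 genes, all 8 probes were lower on b than on a in both groups.

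**Figure D3:**
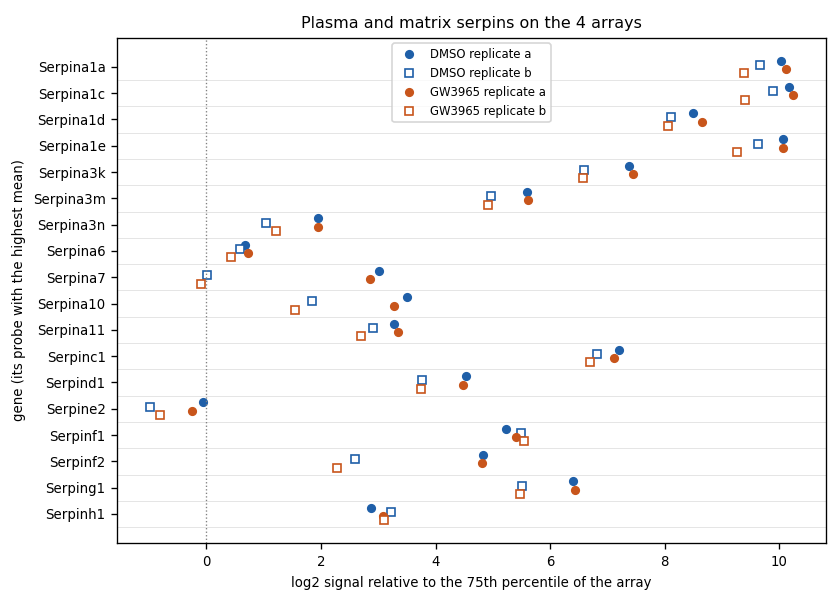
Log2 signal, with the 75th percentile of each array at 0 (horizontal axis), for 18 plasma and matrix serpin genes (vertical axis), 1 point per array, with circles for replicate a, open squares for replicate b, blue for DMSO and orange for GW3965. The circles lie well apart from the squares for Serpina7, Serpinf2 and Serpina10, while all 4 points of Serpina6, Serpinf1 and Serpinh1 lie close together; levels of different genes depend on the probe and are not comparable.

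Promoter sequence was at hand for 50 of the 61 genes, as 59 stretches of 300 bases (250 before the start of transcription and 50 after it) from RefSeq on GRCm38.p6. The letters GTTAAT, one arm of the binding site of the liver factor HNF1, were found on either strand in 11 of the 59 (18.6%), against 7.1% of all 32851 promoters. They belong to 10 genes, Serpina7 having 2 promoters that overlap. Besides Serpina7 these were Serpina1a, Serpina1c, Serpina1d, Serpina1e, Serpina3c, Serpinb3b, Serpinb3d, Serpinb8 and Serpini2, and Serpinb3b was not well above background on any array. The 100 bases before the start are shown for a pair of antitrypsin genes and for Serpina7, with GTTAAT in capitals. They lie at GRCm38.p6 chr12:103863620-103863719, chr12:103904951-103905050 and chrX:139085237-139085336, all on the minus strand.
Serpina1a: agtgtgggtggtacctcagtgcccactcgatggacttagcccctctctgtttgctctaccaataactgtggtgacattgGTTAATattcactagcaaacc
Serpina1c: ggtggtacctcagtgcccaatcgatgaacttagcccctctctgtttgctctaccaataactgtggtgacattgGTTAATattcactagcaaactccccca
Serpina7: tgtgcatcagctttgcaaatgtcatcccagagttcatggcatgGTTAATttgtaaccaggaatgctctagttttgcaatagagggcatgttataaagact
Over their full 300 bases, the promoters of Serpina1a, Serpina1c, Serpina1d and Serpina1e shared an unbroken run of 59 bases that holds the motif. Direct repeats of the nuclear receptor half-site with 4 bases between them (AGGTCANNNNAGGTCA, the arrangement LXR is known for, searched as these exact letters on both strands) were found in 0 of the 59, against 0.0152% of all promoters. A single AGGTCA, which the repeat also contains, was in 19 of the 59 (32.2%) against 16.3% of all. The 19 are not independent. Serpina11 and Serpinb6d each count through 2 promoters that overlap, and the promoters of the neighbours Serpinb9e, Serpinb9f and Serpinb9g are much alike. All these motif counts are matches of letters in a short window and were not set against binding data.

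Among the antichymotrypsin-like genes of the Serpina3 group, the brightest array was again an a array for the main liver genes. Serpina3k read 7.37 and 6.60 with DMSO and 7.44 and 6.57 with GW3965, replicate a first. Serpina3m read 5.60 and 4.97 with DMSO and 5.61 and 4.91 with GW3965. Serpina3n, an acute phase gene, read 1.94 and 1.05 against 1.95 and 1.22. For all 3 the groups overlapped and same-lettered arrays lay close together. Differences were 0.02 ± 0.42 (SE) for Serpina3k, -0.02 ± 0.35 for Serpina3m and 0.09 ± 0.41 for Serpina3n.

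Other copies of the group went different ways. Of its 11 probes tested, 6 were lower on b in both groups and 3 were higher. Serpina3c read 2.52 and 1.55 with DMSO and 2.56 and 1.62 with GW3965, lower on both b arrays. So was Serpina3h, at 2.09 and 1.39 against 2.13 and 1.46. Serpina3g, known from leukocytes, was higher on b than on a, reading 0.93 and 1.82 with DMSO against 0.65 and 1.504 with GW3965. Serpina3b read -1.56 and -1.80 with DMSO and -1.27 and -1.43 with GW3965, so that its groups did not overlap, with a difference of 0.33 ± 0.21 (SE). For Serpina3i the 2 probes disagreed. The first read -0.28 on DMSO replicate a against -2.04, -2.02 and -2.00 on DMSO replicate b and the 2 GW3965 arrays. Its difference of -0.85 ± 0.59 (SE) rested on that 1 array and was 0.02 without it. The second probe read -1.87 and -1.69 with DMSO and -2.01 and -2.02 with GW3965, a difference of -0.24 ± 0.19. The first probe of Serpina3f, which differed by -0.34 ± 0.35, read -2.16 and -1.43 with DMSO and -2.43 and -1.84 with GW3965. Its groups overlapped, and its difference was 0.03 without DMSO replicate b. The second probe, whose accessions name Serpina3f alone, differed by -0.01 ± 0.20.

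The 2 probes of the pseudogene Serpina4-ps1, a relative of kallistatin, overlap by 52 bases in the genome (chr12:105325060-105325119 and chr12:105325068-105325127, plus strand) and differ there at 1 base, G11A. The stretch around that base is shown because the probes gave unequal differences.
Serpina4-ps1 probe 1: aaGtgggagagaccctcctagggtgtcaca
Serpina4-ps1 probe 2: aaAtgggagagaccctcctagggtgtcaca
Probe 1 read -4.07 and -5.53 with DMSO and -4.07 and -5.07 with GW3965, a difference of 0.23 ± 0.60 (SE). Probe 2 read -5.11 and -6.50 with DMSO and -4.46 and -5.23 with GW3965, a difference of 0.96 ± 0.54, which was 0.13 with normexp background correction and ran from 0.27 to 1.66 with 1 array left out. Neither probe was well above background on DMSO replicate b, so both entered the test through GW3965 alone, the group with the higher mean. The groups overlapped for both, and the unadjusted p of probe 2 was 0.139 in limma, with an adjusted p of 1.

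Of the remaining clade A genes, Serpina5, Serpina7 and Serpina10 had wide gaps between replicates. Serpina7 read 3.02 on DMSO replicate a and 0.01 on DMSO replicate b, and 2.85 and -0.09 on the GW3965 arrays. The a arrays averaged 7.87-fold above the b arrays, while the difference of GW3965 minus DMSO was -0.13 ± 1.36 (SE), with a 95% interval from -3.67 to 3.41. Serpina10, the inhibitor of activated factor X that acts with protein Z, read 3.50 and 1.85 with DMSO and 3.27 and 1.55 with GW3965. Its difference was -0.26 ± 0.79. Its second probe showed the same gap, at -0.08 and -1.56 with DMSO. Serpina5, the protein C inhibitor, read -2.00 and -5.00 with DMSO and -2.06 and -5.93 with GW3965, and was not well above background on GW3965 replicate b. Serpina6, corticosteroid-binding globulin, the other hormone carrier, had a narrow gap. It read 0.66 and 0.58 with DMSO and 0.72 and 0.43 with GW3965, with a difference of -0.05 ± 0.21. Serpina11 was 3.28 and 2.92 against 3.35 and 2.70, and Serpina9, known from germinal centre B cells, was -1.76 and -2.20 against -1.92 and -2.18. Serpina12 (vaspin) was dim and missed the background call on DMSO replicate b.

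The serpins of coagulation and fibrinolysis were next. Serpinc1, antithrombin, read 7.21 and 6.82 with DMSO and 7.12 and 6.70 with GW3965. Its difference was -0.10 ± 0.26 (SE), with a 95% interval from -0.78 to 0.57. Serpind1, heparin cofactor II, read 4.53 and 3.75 with DMSO and 4.49 and 3.75 with GW3965, a difference of -0.02 ± 0.39. Both genes were lower on each b array than on each a array, with overlapping groups. Serpinf2, the inhibitor of plasmin, read 4.82 and 2.60 with DMSO and 4.81 and 2.29 with GW3965. That is a 5.17-fold gap between a and b arrays beside a group difference of -0.16 ± 1.09.

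Serpine2, an inhibitor of thrombin and urokinase made by many cell types, read -0.06 and -0.99 with DMSO and -0.25 and -0.82 with GW3965, with a difference of -0.01 ± 0.40. The groups of Serpine2 overlapped.

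Complement and matrix serpins split in the direction of the replicate gap. Serping1, the C1 inhibitor, read 6.40 and 5.51 with DMSO and 6.44 and 5.47 with GW3965, lower on both b arrays. Its difference was -0.00 ± 0.46 (SE) on that probe and 0.04 ± 0.43 on the second. Serpinf1, pigment epithelium-derived factor, read 5.24 and 5.50 with DMSO and 5.40 and 5.55 with GW3965, higher on both b arrays, with a difference of 0.11 ± 0.21. Serpinh1 (Hsp47), the collagen chaperone of the endoplasmic reticulum, read 2.87 and 3.23 with DMSO and 3.08 and 3.105 with GW3965, a difference of 0.04 ± 0.22. Groups overlapped for all 3 genes.

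In clade B, 18 probes of 16 genes were tested, with 11 higher and 7 lower in mean with GW3965 and a median difference of 0.02. The Serpinb6 genes were measured on 6 probes, all well above background on every array. Serpinb6a, which inhibits cathepsin G and trypsin-like proteases inside cells, read 6.15 and 6.76 with DMSO and 6.27 and 6.58 with GW3965. The first probe of Serpinb6c read 5.49 and 6.16 with DMSO and 5.61 and 6.08 with GW3965. All 6 Serpinb6 probes were higher on b than on a in both groups, and their differences between groups ran from -0.05 to 0.37. Serpinb8, an inhibitor of furin, was instead lower on b, reading 4.58 and 4.17 with DMSO against 4.42 and 4.13 with GW3965. Serpinb2, plasminogen activator inhibitor 2, read -0.20 and -1.06 against -0.63 and -1.02. Serpinb3c was printed in 10 spots per array, and the SD between its spots ran from 0.18 to 0.37 on the log2 scale within an array.

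The Serpinb9 genes, relatives of the granzyme B inhibitor, held the smallest p-values of the family. Serpinb9f read -1.63 and -1.43 with DMSO and -1.32 and -0.80 with GW3965. Its groups did not overlap, and the difference was 0.47 ± 0.26 (SE), or 1.38-fold, with an unadjusted p of 0.129 in limma. The second probe of Serpinb9e read -3.43 and -3.58 with DMSO and -3.28 and -2.93 with GW3965, a difference of 0.40 ± 0.22 without overlap (unadjusted p of 0.131 in limma). GW3965 replicate b was the highest array for both, and without it the differences were 0.21 and 0.23. Chosen after their values were seen, the first Serpinb9e probe and the Serpinb9g probe differed by 0.42 ± 0.37 and 0.46 ± 0.33, with overlapping groups. The Serpinb9f and Serpinb9g probes nearly match, and the Serpinb9f probe also lists Serpinb9e, so these 4 probes are not independent measurements. Serpinb9 itself differed by 0.02 ± 0.19 and Serpinb9c by -0.11 ± 0.59.

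The widest differences in the family lay between replicates a and b, and they were alike in both groups. Of the 60 probes tested, 36 (60%) were lower on b than on a with DMSO and also with GW3965, against 30.9% of all probes. The median gap, b minus a, was -0.39 with DMSO and -0.29 with GW3965, while that of all probes was 0.078 and 0.057. Its SD over the serpin probes was 0.87 and 0.88, against 0.55 in each group over all probes. The gap passed 1 on the log2 scale downward in both groups for 5 serpin probes (8.33%), against 1.77% of all. Across the 60 probes the gaps of the 2 groups had a Pearson r of 0.87 and a Spearman rho of 0.82, where all probes gave 0.69 and 0.66. Probes on the same 4 arrays share each array's scaling and RNA, so this describes these arrays only.

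**Figure D4:**
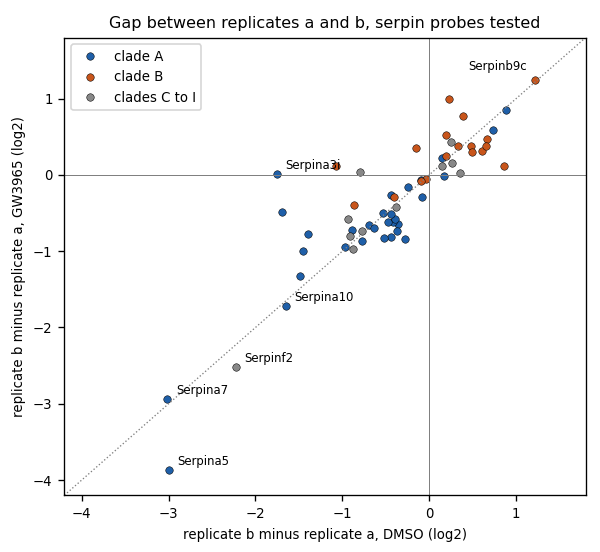
Replicate b minus replicate a on the log2 scale, with DMSO (horizontal axis) against GW3965 (vertical axis), for the 60 serpin probes tested, coloured by clade; the dotted line marks equal gaps. Most clade A probes lie at the lower left, 26 of 31 being lower on b in both groups, and most clade B probes at the upper right, 12 of 18 being higher on b in both.

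Clades differed in the direction of this gap. In clade A, 26 of 31 probes were lower on b in both groups, with a median gap of -0.48 with DMSO and -0.65 with GW3965. In clade B, 12 of 18 were higher on b in both, with medians of 0.28 and 0.33. Of these 12, 6 were Serpinb6 probes and 3 were probes of Serpinb9e, Serpinb9f and Serpinb9g. Some of those nearly match, so the 12 are not independent. Over all probes the median gap was 0.078 with DMSO and 0.057 with GW3965, and the share higher on b in both groups was not counted. Markers of cell types also differed between a and b. Of the hepatocyte markers, 8 of 8 were lower on b in both groups, and their mean log2 level was 4.68 and 4.69 on the a arrays and 3.56 and 3.50 on the b arrays. Acute phase genes were lower in 9 of 9 and macrophage markers in 7 of 7. Stellate cell and fibroblast markers were higher on b in 5 of 6 genes tested (mean level 0.40 and 0.69 on a, 1.25 and 1.39 on b). Endothelial markers were higher in 4 of 6 and cholangiocyte markers in 3 of 4. Of the platelet markers, Gp1ba was not well above background on any array. The part of all these marker groups in the serpin gap was not tested. In bulk RNA, fewer cells of a type and less RNA per cell cannot be told apart.

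A list of 30 genes, drawn up as protease targets of serpins, was described in the same way. The list is broad, and not every gene on it, such as Hgf and Cpb2, encodes a protease that serpins inhibit. All 30 genes were tested, 13 higher and 17 lower in mean with GW3965. Their median difference was -0.03. In limma 0 were called, against 0% of all probes, and 0 had an unadjusted p under 0.05, against 1.03% of all. In 27 of 30 the b array was lower in both groups. F2, prothrombin, whose active form Serpinc1 and Serpind1 inhibit, read 6.98 and 6.76 with DMSO and 6.98 and 6.54 with GW3965. Plg, plasminogen, whose active form Serpinf2 inhibits, read 4.52 and 4.01 against 4.56 and 3.99. Plau, urokinase, a target of Serpine2, read -2.25 and -2.01 against -1.89 and -1.69. Its groups did not overlap, with a difference of 0.34 ± 0.21 (SE). In all, 2 of the 30 were higher without overlap, against 10.1% of all probes, and 0 were lower, against 6.54%.

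Among 24 other protease inhibitors, 23 were tested, 11 higher and 12 lower in mean, with a median difference of -0.01. In limma 0 were called, against 0% of all probes, and 0 had an unadjusted p under 0.05, against 1.03% of all. A2m was not well above background on any array. Agt, angiotensinogen, a clade A serpin by fold whose name the rule does not take, read 2.26 and 2.08 with DMSO and 2.39 and 2.04 with GW3965. Vtn, vitronectin, an adhesive plasma glycoprotein, differed by 0.06 ± 0.21 (SE), and Lrp1, a receptor that clears serpin-protease complexes, by 0.18 ± 0.30.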

How the data were processed

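The authors deposited scanner output and a value table for each array. Per the file headers, the deposited intensity values are background-corrected processed signals from Agilent Feature Extraction 10.7.3.1 (the submitters' processing notes name 11.5.1.11), on array design 028005 with mm9 coordinates, all from 1 slide. The value table held the same signals, with a largest difference of 0. Signals were put on the log2 scale, outlier spots left out, spots of a probe averaged and the 75th percentile of each array subtracted. Probes that the scanner software called well above background on the 2 arrays of a group, in 1 group or both, were tested with limma 3.58.1 in R 4.3.3 (lmFit and eBayes, no block, two-sided, Benjamini-Hochberg over all 35478 probes, threshold 0.05; data.table version 1.17.8). The 95% intervals rest on 2 residual degrees of freedom plus 2.85 from the variance prior. The fit was run on simulated data with independent noise and no gap between a and b. That run therefore does not check the p-values for these arrays.

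Gene names are those of the files, and 75 of 78 serpin probes matched a RefSeq accession. Where a gene had several probes (17 genes), the one with the highest mean leads and is called the first or goes unnumbered. By rule, values are given for plasma serpins of liver, for Serpine2 and Serpinh1, and for the 3 genes with the smallest p in each direction. The other genes with values, such as Serpina3b, Serpina3g, Serpina5, Serpina9, Serpina11 and those of clade B, were chosen after their values were seen. Serpini1 was not tested. One member of the family is counted but its own values are not reported here. Members and lists were chosen with earlier results of these data known. Alternatives covered scaling, background correction, the filter, several probes per gene, the variance model, the replicate letter and each array left out. For arrays, the number of arrays limits the precision. Figures were drawn with matplotlib 3.10.9 in Python 3.11.15.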

Additional observations from a re-analysis of the deposited data

How the results depend on the processing

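No serpin probe was called under any alternative. Among these were quantile normalization, median centring, normexp, 2 other filters, and 1 probe or the mean of probes per gene. Others were an intensity trend, a robust prior and a replicate block. Apart from the block, each fit named here called 0 of all probes too, so these counts say little about serpins. With the replicate letter as a replicate block, 6 of 60 serpin probes (10%) had an unadjusted p under 0.05 in limma, against 5.51% of all probes. Among them Serpinb9f had an adjusted p = 0.797 in limma. Probe 2 of Serpina4-ps1 was another, having entered through GW3965 alone. Over all probes, 16 were called. The SE for Serpina7 was 0.13 with the block and 1.36 without it. For Serpinf2 it was 0.14 against 1.09, and for Serping1 0.13 against 0.46. Serpina6, with its narrow gap between replicates, had 0.14 against 0.21. With that block and only probes well above background on all arrays, chosen after seeing the data, there were 7 of 54 (13%), against 5.25% of all. The letters give only 2 pairs, with a correlation of deviations of 0.69, so the block is a hint from the data. Without a filter, 11 of 78 serpin probes had groups that did not overlap, 3 higher (3.85%, against 9.48% of all) and 8 lower (10.3%, against 11.2%). The serpin median was -0.055 with arrays centred on the median, where the median of all probes moved to -0.049.

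Leaving out 1 array at a time, the serpin median ran from -0.19 to 0.21, the probes at an unadjusted p under 0.05 from 0 to 2 (0% to 3.33%, against 0.995% to 2% of all). Those without overlap ran from 31 to 35 (51.7% to 58.3%, against 56.6% to 62% of all), 1 group then having a single array. With 1 array left out, replicates a and b are no longer balanced between the groups, so the a-to-b gap enters the difference. For Serpina7, GW3965 minus DMSO was -0.17 between the a arrays and -0.10 between the b arrays. The cause of the gap was not tested. Signs turned with quantile normalization for Serpina1a (0.053), Serpina3m (0.00496) and Serping1 (0.040), with median centring for Serpina1d (-0.000137), Serpina3k (-0.027) and Serpinh1 (-0.00797), with normexp for Serpind1 (0.00363), and with the mean of probes for Serping1 (0.016). Leaving out 1 array also turned signs. Differences then ran from -1.12 to 0.60 for Serpina10, -0.46 to 0.28 for Serpina1a, -0.63 to 0.21 for Serpina1c, -0.24 to 0.34 for Serpina1d and -0.59 to 0.22 for Serpina1e. They ran from -0.71 to 0.025 for Serpina3f, -1.73 to 0.024 for Serpina3i, -0.41 to 0.46 for Serpina3k, -0.37 to 0.32 for Serpina3m and -0.36 to 0.54 for Serpina3n. For Serpina6 the range was -0.19 to 0.095, for Serpina7 -1.64 to 1.37, for Serpinc1 -0.31 to 0.10, for Serpind1 -0.41 to 0.36 and for Serpine2 -0.47 to 0.46. For Serpinf1 it was -0.024 to 0.24, for Serpinf2 -1.42 to 1.10, for Serping1 -0.49 to 0.48 and for Serpinh1 -0.13 to 0.22. Probe 2 of Serpinb9e, Serpinb9f and probe 2 of Serpina4-ps1, chosen for their small p-values in limma, kept their sign with each array left out. For the first 2 this was fixed in advance, since leaving out 1 array cannot turn the sign where groups do not overlap.

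Probes not well above background on an array, such as those of Serpina4-ps1 and Serpina12 on DMSO replicate b, have only a bound there, and 2 arrays per group limit every estimate.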
